A study of Mus musculus with 6 samples.

Results

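Selp, Adgrg3, Sp7, Fam19a5, Dynap, Ass1, Cgref1 and Tmem200c are 8 genes of mouse muscle stem cells that were chosen by their measured scaled counts, because both libraries labelled mdx lay below all 4 other libraries, those labelled wt and those labelled mdx/Ripk3mKO. They are 8 of the 14515 genes in the deposited table, and all 8 were among the 14077 genes tested. In the library pairs labelled mdx their mean levels were 64.1% to 87.4% of the wt mean and 56.2% to 80.4% of the mdx/Ripk3mKO mean. Since these values chose the genes, the low mdx levels are a description and were not tested. The pattern is also common: both mdx libraries lay below the 4 others in 1530 of the genes tested (10.9%) and above them in 1358 (9.65%).

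RNA was sequenced in 6 libraries, 2 in each of 3 labelled groups. The wt libraries are labelled wild type. The mdx libraries carry the label of the mdx mouse, a model of Duchenne muscular dystrophy with a mutation in the dystrophin gene Dmd. The mdx/Ripk3mKO libraries carry the mdx label and in addition a change written Ripk3mKO, in which mKO is not spelled out. Ripk3 is a kinase needed for necroptosis, an inflammatory form of cell death. The sources describe the cells in conflicting ways. The sample labels give satellite cells, the stem cells of muscle, in their quiescent or resting state, sorted and used at once for a stranded total RNA kit for low input. The series text instead gives activated wild-type cells collected after 72 hours beneath a transwell insert with wt, mdx or mdx/Ripk3mKO cells, in which case the genotype is that of the cells in the insert. The groups are named here by their labels for this reason. Ages were not used here, and the labels do not tie the libraries of a group to separate animals or cultures. The p-values below therefore rest on the spread among these 6 libraries, and that spread may be technical.

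The scaled counts, which are read counts divided by a factor per library and rounded, summed to between 20611974 and 21037153 per library, from estimated read totals of 17994044 to 25328732. The mdx/Ripk3mKO libraries were the deepest, with divisors of 1.204 and 1.206 against 0.870 to 0.954 in the other libraries, so depth and this label go together. Ripk3 itself was low, at 45 and 32 scaled counts in the wt, 23 and 36 in the mdx and 17 and 33 in the mdx/Ripk3mKO libraries, and these ranges overlapped. Dmd stood at 324 and 432 in the wt, 531 and 692 in the mdx and 474 and 294 in the mdx/Ripk3mKO libraries. Neither gene is a check of the labels at these levels, and the labels do not say which parts of the genes were changed. Library 1 of mdx/Ripk3mKO stood apart from the other 5, with 6918 scaled counts of Xist, which female cells use to silence an X chromosome, where the others had 164 to 666. It also had 373 of the Y-linked gene Ddx3y against 1543 to 1785. The differences of mdx/Ripk3mKO below are also given without this library. The cells were of the muscle lineage: 10 of 12 satellite cell and myoblast markers had a row and summed to 5900 to 6720 CPM, the scaled count relative to the total of its library. Myog, a factor of differentiating myoblasts, stood at 1300 to 1700 CPM, Mki67, a proliferation marker, at 660 to 820, and Pax7, which marks satellite cells, at 84.6 to 103.

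The 8 genes belong to no single pathway. Selp encodes P-selectin, an adhesion receptor that activated endothelial cells and platelets place on their surface and that slows passing leukocytes by binding sugars on Selplg and related ligands. Adgrg3 encodes an adhesion G protein-coupled receptor, a family with long extracellular parts that bind neighbouring cells or matrix, and is best known from neutrophils. Sp7, also called osterix, is a zinc finger transcription factor needed for bone-forming osteoblasts and acts downstream of Runx2. Fam19a5, now named Tafa5, encodes a small secreted protein known mostly from the brain. Cgref1 encodes a secreted protein with EF-hand motifs, which bind calcium, and was named as a regulator of cell growth. Dynap encodes a membrane protein described in human cells as a partner of dynactin, the complex that links cargo to the motor dynein. Ass1 encodes argininosuccinate synthase, which joins citrulline and aspartate on the way to arginine. Tmem200c encodes a transmembrane protein for which no role is stated here.

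Promoter windows of RefSeq, from 250 bases before to 50 bases after a start site, were used for 6 of the 8 genes. Sp7 had no window, and windows on the chromosome of Dynap were left out, so the promoters of these genes were not read. They are shown for the genes with the widest gap between mdx and the other libraries, Selp and Adgrg3, for the gene with the highest level in mdx/Ripk3mKO relative to wt, Tmem200c, and for the most abundant gene, Ass1. Capitals mark E-boxes (CANNTG, the motif that myogenic factors such as Myod1 can bind) and GC boxes (GGGCGG on either strand, the motif of Sp family factors), where adjacent GC boxes run together.
Selp, GRCm38.p6, chr1:164115014-164115313, + strand: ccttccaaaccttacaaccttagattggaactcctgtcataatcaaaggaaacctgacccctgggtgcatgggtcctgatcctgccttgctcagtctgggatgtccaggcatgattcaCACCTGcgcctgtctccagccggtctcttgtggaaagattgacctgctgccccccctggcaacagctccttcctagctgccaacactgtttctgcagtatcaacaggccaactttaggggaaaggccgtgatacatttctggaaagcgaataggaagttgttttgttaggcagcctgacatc
Adgrg3, GRCm38.p6, chr8:95017442-95017741, + strand: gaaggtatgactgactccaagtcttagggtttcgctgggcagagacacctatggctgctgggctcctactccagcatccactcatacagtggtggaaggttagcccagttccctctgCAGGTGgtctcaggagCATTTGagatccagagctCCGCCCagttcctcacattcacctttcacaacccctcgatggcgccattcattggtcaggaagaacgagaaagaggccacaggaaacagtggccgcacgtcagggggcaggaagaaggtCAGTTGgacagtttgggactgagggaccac
Tmem200c, GRCm38.p6, chr17:68836886-68837185, + strand: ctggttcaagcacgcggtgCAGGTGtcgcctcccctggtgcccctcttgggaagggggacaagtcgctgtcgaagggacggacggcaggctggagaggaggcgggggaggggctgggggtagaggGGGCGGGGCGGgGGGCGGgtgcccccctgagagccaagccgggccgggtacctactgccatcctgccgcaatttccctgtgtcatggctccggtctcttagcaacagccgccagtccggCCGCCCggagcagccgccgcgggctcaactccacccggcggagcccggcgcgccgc
Ass1, GRCm38.p6, chr2:31470020-31470319, + strand: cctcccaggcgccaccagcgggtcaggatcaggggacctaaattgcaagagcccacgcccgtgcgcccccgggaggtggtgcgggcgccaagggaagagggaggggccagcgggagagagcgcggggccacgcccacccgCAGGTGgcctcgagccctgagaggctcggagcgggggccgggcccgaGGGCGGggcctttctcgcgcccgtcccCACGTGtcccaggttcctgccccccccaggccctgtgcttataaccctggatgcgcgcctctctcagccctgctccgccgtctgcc

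The windows differed in base composition. GC content was 51.7% for Selp and 55.7% for Adgrg3, near the median of 52.7% over all 32851 windows, but 73.0% for Tmem200c and 74.0% for Ass1, at the 94.3 and 95.2 percentiles. The windows held 4 CpG dinucleotides for Selp, 7 for Adgrg3, 28 for Tmem200c and 27 for Ass1, against a median of 7. GC boxes numbered 0 in Selp, 1 in Adgrg3, 1 in Ass1 and 4 in Tmem200c, and 35.7% of all windows held at least 1. E-boxes numbered 1 in Selp, 1 in Tmem200c, 2 in Ass1 and 3 in Adgrg3, and 72.3% of all windows held at least 1. Both strands were also searched for an AP-1 element (TGANTCA, in 7.81% of windows), a cAMP response element core (TGACG, 20.8%) and a TATA element (TATAAA, 13.6%). Of the 4 windows shown, that of Selp held 1 AP-1 element and that of Adgrg3 held 1 cAMP response element core, and none held a TATA element. The 2 windows of Cgref1 had GC contents of 65.3% and 69.7%, and the 2 of Fam19a5 83.7% and 81.0%. No motif was held by all 6 genes. These matches are letters in a window and not measured binding sites.

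Selp had 301 and 350 scaled counts in the wt libraries, 201 and 216 in the mdx libraries, and 335 and 318 in the mdx/Ripk3mKO libraries. The mdx pair stood alone at the low end, and the wt and mdx/Ripk3mKO pairs overlapped. The lowest of the 4 other libraries was 1.39 times the highest mdx library, the widest gap of the 8 genes. On the log2(scaled count + 1) scale, used for all differences below, the mdx mean differed from wt by -0.64 ± 0.11 (moderated standard error, n = 2 libraries a group). The mdx/Ripk3mKO mean differed from mdx by 0.64. The mdx pair of libraries enters both differences, so they are not independent of each other.

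Adgrg3 had 446 and 453 scaled counts in wt against 291 and 345 in mdx, with 432 and 475 in mdx/Ripk3mKO. Its pattern was like that of Selp, with the mdx pair low and the other groups overlapping. The gap ratio was 1.25, and the differences were -0.50 ± 0.10 for mdx from wt and 0.51 for mdx/Ripk3mKO from mdx. Sp7 had 781 and 860 in mdx, against 988 and 1088 in wt and 1146 and 1051 in mdx/Ripk3mKO. The wt and mdx/Ripk3mKO libraries of Sp7 overlapped as well, and its differences were -0.34 ± 0.08 and 0.42.

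Fam19a5 had 1626 and 1650 scaled counts in wt, then 1261 and 1436 in mdx, then 1691 and 1800 in mdx/Ripk3mKO. Dynap had 1694 and 1806, then 1469 and 1522, then 1920 and 1901 in the same order of groups. Ass1, the most abundant of the 8, had 3635 and 3399 in wt against 3113 and 3004 in mdx, with 3786 and 3819 in mdx/Ripk3mKO. In these genes of middle to high level the mdx pair was lowest and the mdx/Ripk3mKO pair highest, with no overlap between any of the groups. Their mdx differences from wt were smaller than that of Selp, at -0.28 ± 0.07 for Fam19a5, -0.23 ± 0.06 for Dynap and -0.20 ± 0.05 for Ass1. Their mdx/Ripk3mKO differences from mdx were 0.37, 0.35 and 0.31.

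Cgref1 had 591 and 557 scaled counts in mdx, against 666 and 647 in wt and 843 and 737 in mdx/Ripk3mKO. Tmem200c had 212 and 177 in wt, then 164 and 139 in mdx, then 256 and 283 in mdx/Ripk3mKO. In both genes the step from wt to mdx/Ripk3mKO was larger than the step from mdx to wt. The mdx differences from wt were -0.19 ± 0.08 for Cgref1 and -0.36 ± 0.13 for Tmem200c, and the mdx/Ripk3mKO differences from mdx were 0.46 and 0.83. The difference of Tmem200c from wt was -0.23 without wt library 1 and -0.49 without wt library 2. Tmem200c had the narrowest gap of the 8, with the lower wt library 1.08 times the higher mdx library. In 7 of the 8 genes the library that set the gap was a wt library. With library 1 of mdx/Ripk3mKO left out, the mdx/Ripk3mKO differences from mdx over the 8 genes ran from 0.32 for Ass1 to 0.90 for Tmem200c, and that of Cgref1 was 0.36.

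**Figure D1:**
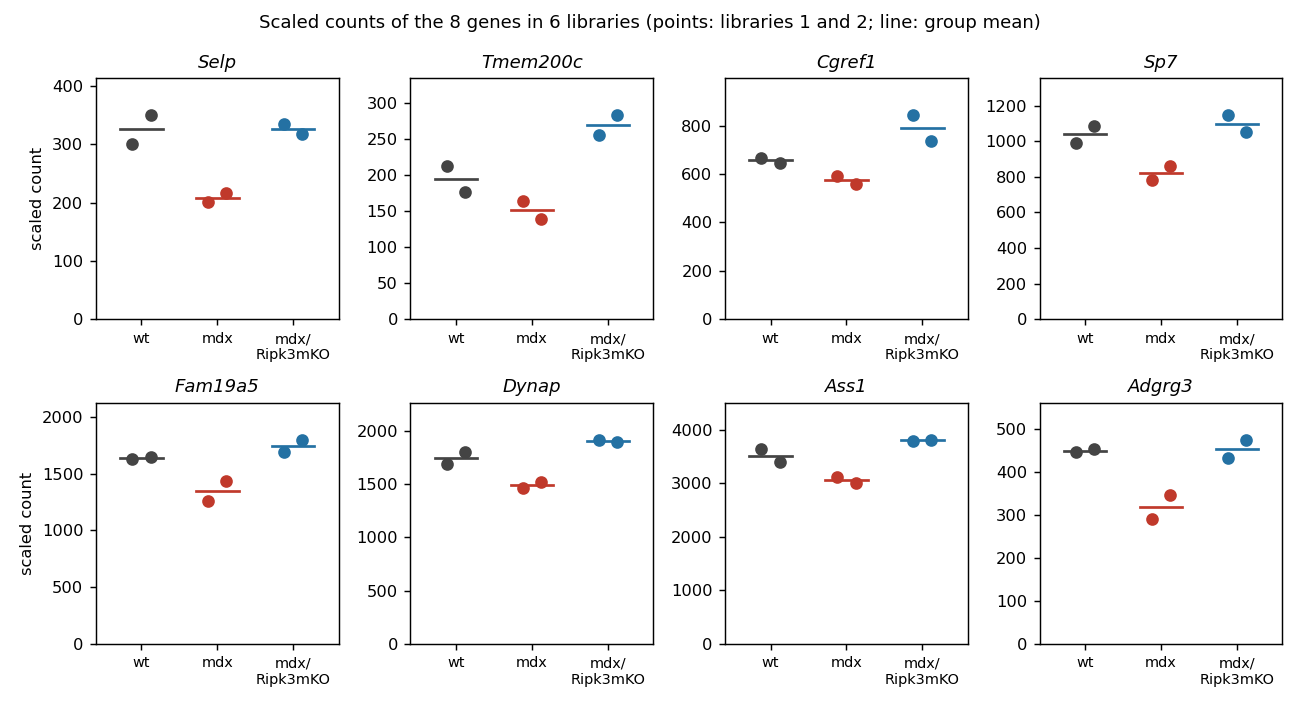
Scaled counts (linear axes from 0) of the 8 genes in each library, with wt in grey, mdx in red and mdx/Ripk3mKO in blue; points are the 2 libraries of a group and lines their mean. The mdx points are lowest in every panel, as the choice of genes fixes, while the blue points overlap the grey ones for Selp, Sp7 and Adgrg3 and lie above them for the other 5.

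Past the rule, 57 protein-coding genes at a mean of at least 5 CPM met the same ordering with differences at least as large as the smallest among the 8, which were -0.19 for mdx from wt and 0.31 for mdx/Ripk3mKO from mdx. The 8 genes are 8 of these 57, so other genes could have been picked. Just outside the rule stood Fhl2, a LIM domain protein of striated muscle, with 360 and 435 scaled counts in wt against 364 and 310 in mdx, with 411 and 439 in mdx/Ripk3mKO, a ratio of 0.989. Ptgir, the prostacyclin receptor, and Htra3, a secreted protease, followed at 0.972 and 0.967. By limma 3.58.1 with Benjamini-Hochberg adjustment over all genes tested, 1 gene was called in mdx against wt (0.0071%) and it was none of the 8. In mdx/Ripk3mKO against mdx 29 genes were called (0.206%), 12 of them higher, and 7 of the 8 genes were among those 12. Adgrg3 was not. The rule used both of these contrasts, so nothing is read from these counts.

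The difference between the mdx/Ripk3mKO and wt means does not use the mdx values, although its standard error comes from the fit of all 6 libraries. The wt and mdx/Ripk3mKO values each entered the choice of genes against mdx, so for the 8 genes these differences and intervals are a description too, and the intervals do not allow for that choice. Over all 14077 genes limma called 0 (0.0%) at an adjusted p of 0.05, while 468 had an unadjusted p under 0.05, and none of the 8 genes was called. Tmem200c had the largest difference of the 8, 0.47 ± 0.13 higher in mdx/Ripk3mKO (95% interval 0.18 to 0.76). It was 0.54 without library 1 of mdx/Ripk3mKO and 0.4 without library 2. Cgref1 was 0.26 ± 0.08 higher (0.09 to 0.44). Its value kept its sign but moved in size with single libraries, to 0.17 without library 1 of mdx/Ripk3mKO and 0.36 without library 2.

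For Selp the difference was 0.01 ± 0.11 with a 95% interval from -0.23 to 0.24, and for Adgrg3 0.01 ± 0.10 with an interval from -0.20 to 0.22. The group means were 325.5 scaled counts in wt and 326.5 in mdx/Ripk3mKO for Selp, and for Adgrg3 the mdx/Ripk3mKO mean was 101% of wt. Both intervals are wide enough to hold differences of the size seen for Dynap or Ass1. Sp7 differed by 0.08 ± 0.08 (-0.08 to 0.25) and Fam19a5 by 0.09 ± 0.07 (-0.06 to 0.24). Dynap differed by 0.13 ± 0.06 (0.00 to 0.25) and Ass1 by 0.11 ± 0.05 (0.00 to 0.23). Without library 1 of mdx/Ripk3mKO the differences were -0.03 for Selp, 0.08 for Adgrg3, 0.02 for Sp7, 0.14 for Fam19a5, and 0.12 for both Dynap and Ass1. Those of Sp7 and Fam19a5 thus moved by more than 1.5 times, in opposite directions.

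By order alone, both mdx/Ripk3mKO libraries lay above both wt libraries in 5 of the 8 genes (Tmem200c, Cgref1, Fam19a5, Dynap and Ass1), overlapped them in 3 and lay below them in 0. Over all genes tested, 14.4% had the higher and 15.1% the lower order. Among the 1530 genes with both mdx libraries lowest, 23.7% had mdx/Ripk3mKO above wt. As 7 of the 8 genes were already known to be high in mdx/Ripk3mKO against mdx when they were picked, the count of 5 is a description. With library 1 of mdx/Ripk3mKO left out the count was 6 of 8, where 29.8% of all genes had this order.

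**Figure D2:**
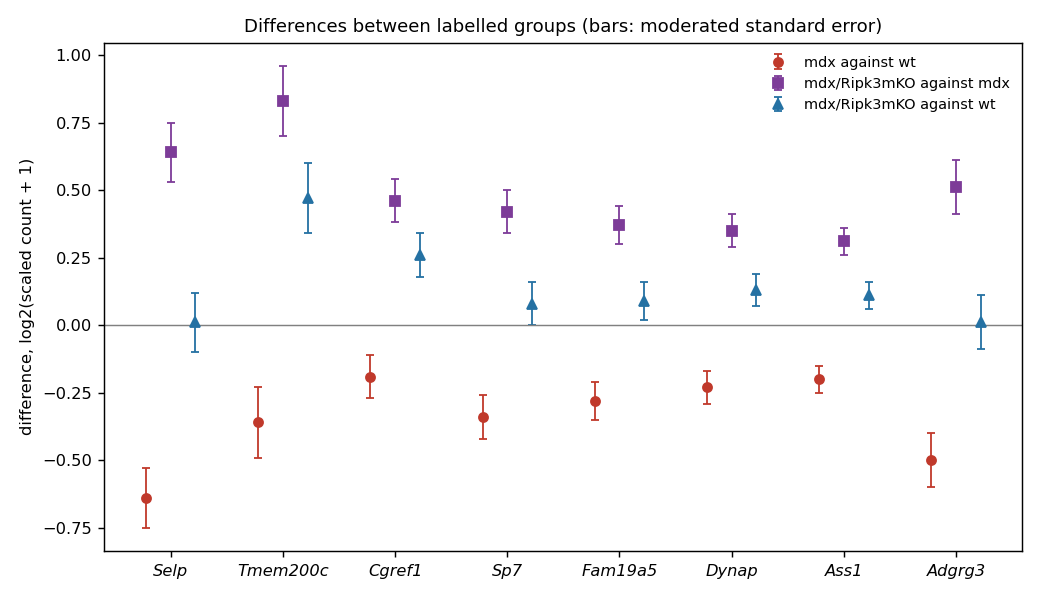
Differences between group means on the log2(scaled count + 1) scale for the 8 genes, with moderated standard errors, for mdx against wt (red circles), mdx/Ripk3mKO against mdx (purple squares) and mdx/Ripk3mKO against wt (blue triangles). Red points lie below 0 and purple ones above 0 by the choice of genes; blue points run from 0.01 for Selp and Adgrg3 to 0.47 for Tmem200c.

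Libraries of the same group differed in these genes by 0.01 to 0.26 on the log2 scale. The median absolute difference was 0.10 in wt, 0.12 in mdx and 0.10 in mdx/Ripk3mKO, beside 0.11 over all genes tested in each group. Over the 7495 genes in the level range of the 8, the medians were 0.08, 0.07 and 0.08, so the 8 genes lay above genes of like level. Tmem200c differed by 0.26 between the wt libraries and by 0.24 between the mdx libraries, where counting error alone has an SD of 0.16 and 0.17. Adgrg3 differed by -0.24 and Fam19a5 by -0.19 between the mdx libraries, with library 1 lower. Of the 24 within-group differences, 4 exceeded 2 SD of counting error. In wt and in mdx alike, library 1 was the higher for Tmem200c, Cgref1 and Ass1 and the lower for the other 5. The sign was thus shared by wt and mdx in 8 of 8 genes, beside 55.4% of all genes tested. The numbers of the mdx libraries are names in column order, so this is a description.

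**Figure D3:**
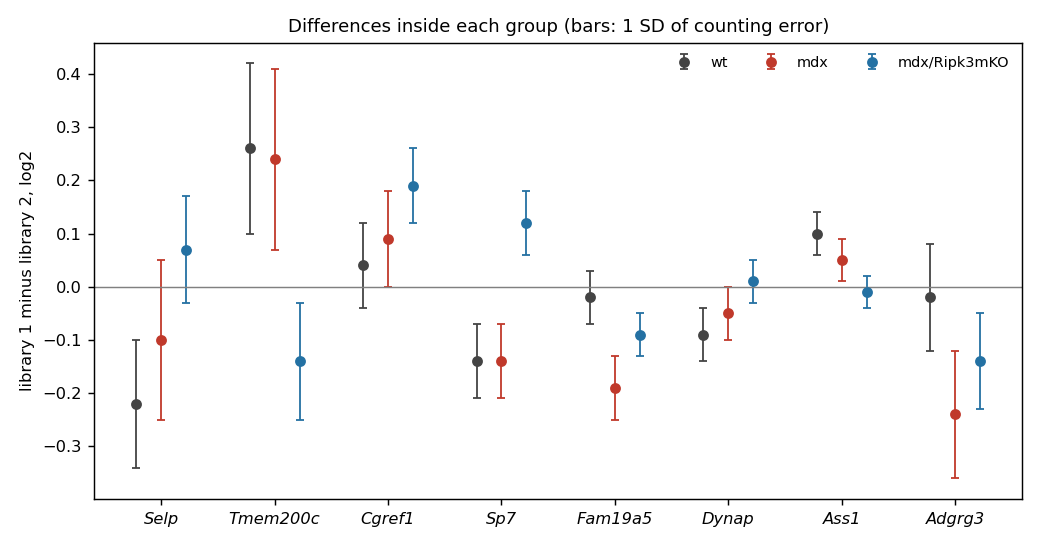
Log2 difference of library 1 from library 2 inside wt (grey), mdx (red) and mdx/Ripk3mKO (blue) for each of the 8 genes, with bars of 1 SD of counting error. Differences stay within 0.26 of 0, and grey and red points lie on the same side of 0 for each gene.

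The levels of the 8 genes spanned a wide range. In CPM per kilobase of the longest annotated transcript, Ass1 stood at 98 on average over the 6 libraries (range 85.9 to 109) and Dynap at 67.4 (57.0 to 74.8). Fam19a5 stood at 28.6 (22.6 to 32.7), Cgref1 at 22.4 (18.7 to 27.8) and Sp7 at 15.3 (12 to 17.6), and of these the ranges of Fam19a5 and Cgref1 overlapped. Adgrg3 stood at 6.45 (4.56 to 7.54), Selp at 4.01 (2.78 to 4.92) and Tmem200c at 3.07 (2.10 to 4.24), with overlap between Adgrg3 and Selp and between Selp and Tmem200c.

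The genes lie on 7 chromosomes of the mm10 build, per the deposited table. Selp (ENSMUSG00000026580) spans chr1:164115264-164150026 on the + strand, Adgrg3 (ENSMUSG00000060470) chr8:95017692-95045250 on the + strand, and Tmem200c (ENSMUSG00000095407) chr17:68837136-68843138 on the + strand. Ass1 (ENSMUSG00000076441) spans chr2:31470207-31520672 on the + strand and Cgref1 (ENSMUSG00000029161) chr5:30933143-30945591 on the - strand. Fam19a5 (ENSMUSG00000054863, chr15:87625230-87759336, + strand) and Sp7 (ENSMUSG00000060284, chr15:102356609-102366325, - strand) share a chromosome. Dynap (ENSMUSG00000024512) spans chr18:70240429-70244584 on the - strand. In GENCODE, antisense or intergenic RNA genes overlap Selp and Tmem200c on the opposite strand, none with a row in the table. The sources used here do not say whether reads were counted by strand, and the values of Selp and Tmem200c may include reads from them.

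Of 32 genes that flank the 8 most closely in the table, 2 on each side, 7 also had both mdx libraries lowest (21.9%, beside 10.9% of all genes tested). Among these 7 were Ccdc102a and Kifc3, a kinesin, both beside Adgrg3. Kifc3 had 1099 and 996 scaled counts in wt, 984 and 974 in mdx, with 1104 and 1056 in mdx/Ripk3mKO. The differences of mdx from wt in Ccdc102a and Kifc3 were smaller than that of Adgrg3. The nearest relative, Adgrg1, had 1961 and 1721 in wt, then 1759 and 1308 in mdx, then 1948 and 1755 in mdx/Ripk3mKO, with overlap between the groups. Beside Ass1, Hmcn2 went the other way, at 117 and 101 in mdx against 91 and 78 in wt. Ncs1, a neuronal calcium sensor that is the second gene from Ass1 on that side, had 2893 and 2848 in wt against 2414 and 2457 in mdx, with 2875 and 2958 in mdx/Ripk3mKO. Next to Sp7, Aaas, a nuclear pore protein, had both mdx libraries lowest, at 1623 and 1819 against 1889 to 1989 in the 4 others. The general transcription factor Sp1, on the other side of Sp7, did not share the order, with 3012 and 3200 in wt and 2925 and 3311 in mdx. Over the 31 flanking genes tested the median difference of mdx from wt was -0.01.

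**Figure D4:**
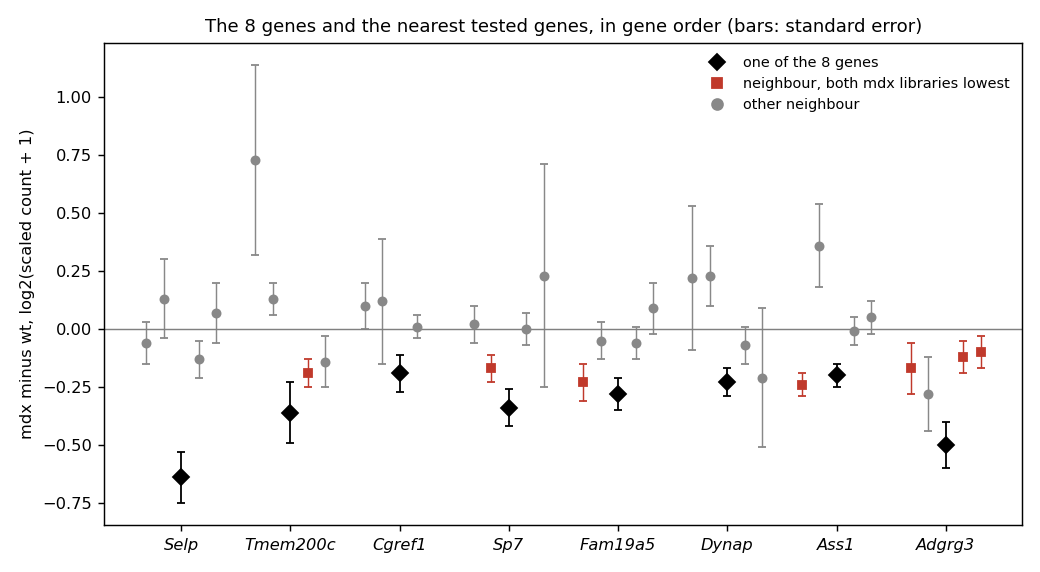
Difference of mdx from wt on the log2(scaled count + 1) scale, with standard errors, for the 8 genes (black diamonds) and up to 4 flanking genes each, in gene order. Red squares are the 7 flanking genes with both mdx libraries lowest, and grey circles are the others.

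GC content was shared by most of the 8 genes, and the rule did not use it. The longest transcripts had a median GC content of 54.1%. The median was 49.5% over all genes tested and 53.4% over the 1530 of them with both mdx libraries lowest. Of the 8, 7 lay above the median of all genes tested. Dynap, at 44.3%, did not. Tmem200c was highest at 59.3%. The share of genes with both mdx libraries lowest rose over 4 bins of GC content, each with the same number of genes, from 4.29% to 7.82%, 12.2% and 19.2%, and the share with both highest fell from 13.0% to 5.72%. GC content thus moves with the order that chose the genes. After each library was corrected for GC content and transcript length, the mdx differences from wt were -0.63 for Selp, -0.48 for Adgrg3 and -0.31 for both Sp7 and Tmem200c. They were -0.26 for Fam19a5 and Dynap, -0.19 for Ass1 and -0.17 for Cgref1. The mdx/Ripk3mKO differences from mdx after correction ran from 0.26 for Ass1 to 0.74 for Tmem200c. Under this correction 1 gene in place of 12 was called higher in mdx/Ripk3mKO than in mdx over all genes tested.

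**Figure D5:**
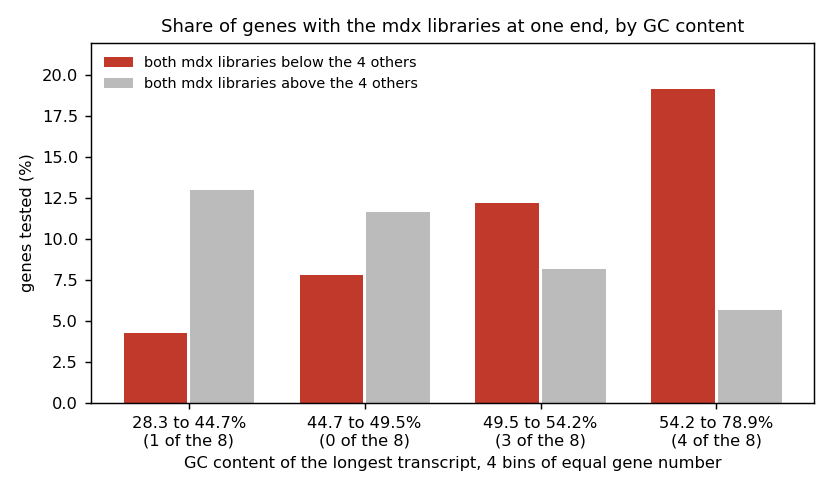
Percent of genes tested with both mdx libraries below (red) or above (grey) the 4 others, in 4 equal bins of transcript GC content, with the number of the 8 genes in each bin under the axis. The red bars climb from 4.29% to 19.2% and the grey bars fall from 13.0% to 5.72%.

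A list of genes that act with Selp held selectins, enzymes that build their sugar ligands and adhesion partners, of which 11 other than Selp were tested. In each of the 3 comparisons 0 of the 11 passed the limma threshold. An unadjusted p under 0.05 was found for 1 in mdx against wt, 2 in mdx/Ripk3mKO against mdx and 0 in mdx/Ripk3mKO against wt, where the shares over all genes tested were 6.46%, 11.6% and 3.32%. Their median differences were -0.10 for mdx from wt, 0.09 for mdx/Ripk3mKO from mdx and 0.01 for mdx/Ripk3mKO from wt, where the medians over all genes tested were within 0.002 of 0. Both mdx libraries were lowest in 4 of the 11 (10.9% of all genes tested): Cd24a, the fucosyltransferase Fut4, and the tyrosine sulfotransferases Tpst1 and Tpst2, which add sulfate to selectin ligands. Tpst2 had 1372 and 1370 scaled counts in mdx, against 1491 and 1460 in wt and 1527 and 1563 in mdx/Ripk3mKO. Vcam1, an adhesion receptor of muscle stem cells, overlapped between groups, at 2205 and 2307 in wt, then 2170 and 2436 in mdx, then 2292 and 2394 in mdx/Ripk3mKO. Markers of the cells best known for Selp were low: 7 of 14 endothelial markers had no row, and the rest summed to 4.48 to 6.18 CPM, with 6.18 and 5.14 in mdx and 5.49 and 5.66 in wt. Of 12 platelet markers 9 had no row, Pf4 and Gp9 among them, and the rest summed to 1.79 to 2.52 CPM. Selp alone stood at 9.56 to 16.9 CPM. In bulk RNA fewer cells that express a gene and less RNA per cell cannot be told apart.

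Of 17 other osteoblast regulators and products tested, 0 were called by limma in any comparison. An unadjusted p under 0.05 was found for 4 in mdx against wt, 2 in mdx/Ripk3mKO against mdx and 1 in mdx/Ripk3mKO against wt. The shares over all genes tested were 6.46%, 11.6% and 3.32% in the same order. The difference of mdx from wt was above 0 in 9 of the 17 and below 0 in 8. The median differences were 0.03 for mdx from wt and -0.04 for mdx/Ripk3mKO from mdx. Both mdx libraries were lowest in 2 of the 17 (10.9% of all genes tested), Dlx3 and Runx2. Dlx3 followed the order of Sp7 more strongly than Runx2 did, with mdx values of 393 and 457 where the 4 others ran from 481 to 546. Its differences were -0.21 ± 0.09 for mdx from wt and 0.32 ± 0.09 for mdx/Ripk3mKO from mdx. Runx2, upstream of Sp7, had the mdx libraries lowest by a small margin, at 2929 and 3149 in wt against 2830 and 2817 in mdx, with 2957 and 3049 in mdx/Ripk3mKO. Sparc, a matrix protein of bone and many other tissues, had 22228 and 22190 in wt and 23153 and 23148 in mdx. Of 11 osteoblast markers 5 had a row and summed to 144 to 160 CPM, most of it Runx2. Bglap, Bglap2 and Ibsp had no row, and Alpl reached at most 14 scaled counts. Dmp1, a matrix protein of bone, went against Sp7, at 129 and 141 in mdx and 71 to 101 in the 4 others, a difference of mdx from wt of 0.66 ± 0.18 (limma adjusted p = 0.465). Phex, an endopeptidase of bone cells, overlapped between groups at 47 to 73. Among the 17, Bmp4 and Bmp2, genes of low counts, also differed from wt in the direction opposite to Sp7. Their differences of mdx from wt were 1.21 ± 0.37 and 1.08 ± 0.48. Bmp4 had 22 and 24 in mdx against 8 to 15 in the 4 others, while the mdx and mdx/Ripk3mKO libraries of Bmp2 overlapped. Of the 4 other Sp factors tested, 0 were called by limma and 0 had an unadjusted p under 0.05 in any comparison. Their median differences were 0.02 for mdx from wt and -0.06 for mdx/Ripk3mKO from mdx, and in none of them were both mdx libraries lowest.

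Of 18 other genes of arginine synthesis and use beside Ass1, 0 were called by limma in any comparison. An unadjusted p under 0.05 was found for 0 in mdx against wt, 1 in mdx/Ripk3mKO against mdx and 1 in mdx/Ripk3mKO against wt. The shares over all genes tested were 6.46%, 11.6% and 3.32% in the same order. The median differences of the 18 were -0.02 for mdx from wt and 0.07 for mdx/Ripk3mKO from mdx. The arginine transporter Slc7a1 had 3884 and 4007 in mdx, against 3830 and 4064 in wt and 3945 and 4000 in mdx/Ripk3mKO, which overlap. Both mdx libraries were lowest in 2 of the 18 (10.9% of all genes tested), the aspartate aminotransferases Got1 and Got2. Their differences of mdx from wt were -0.05 ± 0.06 and -0.04 ± 0.05. Those differences were within 1 standard error of 0.

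Relatives of the remaining genes were read the same way. Of 16 other adhesion G protein-coupled receptors 0 were called by limma and 0 to 1 had an unadjusted p under 0.05 in each comparison. The shares over all genes tested were 6.46% in mdx against wt, 11.6% in mdx/Ripk3mKO against mdx and 3.32% in mdx/Ripk3mKO against wt. The median difference of mdx from wt over the 16 was -0.04. Adgre5, the most abundant of them, had 4361 and 4734 in wt and 4272 and 4457 in mdx. Both mdx libraries were lowest in 1 of the 16 (10.9% of all genes tested), Adgrg2. It had 118 and 115 in mdx against 131 to 164 in the 4 others, and a difference of mdx from wt of -0.34 ± 0.15. Of 12 neutrophil markers none had a row, while Adgrg3 stood at 291 to 475 scaled counts. Of 12 dynactin subunits, the partners of Dynap, 0 were called by limma and 0 to 1 had an unadjusted p under 0.05. Their median difference of mdx from wt was -0.03, and Capzb, the most abundant, differed by -0.02 ± 0.05. Both mdx libraries were lowest in 1 of the 12 (10.9% of all genes tested), Capza1, with a difference from wt of -0.06 ± 0.06. Tmem200a was the other gene of the Fam19a and Tmem200 families that was tested, at 103 and 100 in wt, then 116 and 104 in mdx, then 87 and 73 in mdx/Ripk3mKO. Its order was opposite to that of Tmem200c. Macrophage markers summed to 2.36 to 3.30 CPM, with 2.57 and 3.30 in mdx. Fibroblast and fibro-adipogenic markers summed to 181 to 239 CPM, with 184 and 200 in mdx. Pericyte and smooth muscle markers summed to 1950 to 2650 CPM, most of it Acta2, with 2650 and 1950 in mdx. In that list Pdgfrb was higher in both mdx libraries, at 409 and 444 scaled counts against 248 to 333 in the 4 others, and mdx/Ripk3mKO differed from mdx by -0.57 ± 0.12 (limma adjusted p = 0.0836). Abcc9 had 1008 and 1030 in mdx against 614 to 928. The rest of that list was mixed. The differences of mdx from wt were 0.19 ± 0.08 for Notch3 and 0.75 ± 0.35 for Rgs5, a gene of low counts. They were -0.02 ± 0.25 for Acta2 and -0.08 ± 0.12 for Mcam. The part of these cells in the levels of the 8 genes was not tested.

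Each of the 8 genes was also compared with 9565 protein-coding genes over the 6 libraries by Pearson r of log2 values, as a description in which all points share the same libraries and scaling. Selp was most like Arpc4, a subunit of the actin-branching Arp2/3 complex (r = 0.996), then Cdc16 and Rasa4, and most unlike Lonrf1 (-0.993). Adgrg3 was most like Msn, which encodes moesin, a linker of membrane and actin (0.999), then Srm and Fbxl18. Sp7 was most like Spns1 (0.997), then Ppp4r2 and Cdc16, and most unlike the transcription factor E2f6 (-0.996). Cdc16 is thus shared between the nearest genes of Selp and Sp7. Fam19a5 was most like Otub1, a deubiquitinase (0.992), then Smg5 and Crtap. Dynap was most like Amd1, an enzyme of polyamine synthesis (0.992), then Srpx2 and Gpaa1. Ass1 was most like Stk11, the kinase that activates AMPK (0.998), then Prep and Cdipt. Cgref1 was most like Mad1l1, a spindle checkpoint protein (0.995), then Rps19bp1 and Myo1c, and Tmem200c most like Hsf1, the heat shock factor (0.996), then Ptov1 and L3mbtl2. The likest genes were not members of the set for any of the 8. These r values are the extremes of 9565 over only 6 libraries, and r takes no account of the size of a change. The log2 range of the likest genes over the libraries ran from 0.11 for Msn and Stk11 to 0.52 for Rasa4. A shared control of these genes was not tested.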

How the data were processed

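Expression was analysed in 6 libraries of 3 labelled groups, 2 libraries each. Per the submitters' processing notes the tools were Trimmomatic 0.36, STAR 2.6.1d, featureCounts 1.6.3 and DESeq2 1.18.1 with the mm10 build; no roles are given. The deposited values behave as counts scaled between libraries and rounded (size factors computed from them were 1.002 in each library), so the authors' values were taken as a score rather than raw counts. Divisors were estimated from skipped and doubled whole numbers. Both mdx columns carry one header, so their numbers are names in column order. CPM here is the scaled count relative to the total of scaled counts.

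Limma 3.58.1 in R 4.3.3, with statmod 1.5.0, was fitted to log2(scaled count + 1) over all 6 libraries with group as the only term, a mean-variance trend and robust moderation (3 residual degrees of freedom). This scale understates changes of low genes. The test covered the 14077 genes that reached 10 scaled counts in 2 or more libraries and left out 438, with Benjamini-Hochberg adjustment and a threshold of 0.05. Counts were simulated for mdx/Ripk3mKO against wt, with 1 spread for all genes and 200 changed genes in each of 3 runs. The fit recovered 78.9% of genes changed 1.5-fold and called 21 of 41379 unchanged genes. The changed genes were drawn only from genes above a cut on mean level, and no simulated library stood apart. The share recovered therefore need not hold for the real data or for low genes. GC content and transcript length came from the longest GENCODE transcript, promoters from RefSeq (GRCm38.p6). A count of 0 allows up to 3 counts, or 2.49 to 3.45 scaled counts, and covers counting error only. The genes and all lists were chosen with earlier results of these data known. Named were the 8 genes, the called or up to 4 most abundant genes of each list, the closest genes by r, the flanking genes and those next to the rule's limit. Not all are described. The list genes named for having the mdx libraries lowest, and Bmp2 and Bmp4, were chosen after their values were seen. Alternatives were other pseudocounts, scalings, filters and fits, a correction for GC content and length, a replicate block, and leaving out each library. Python 3.11.15, pandas 2.3.3 and numpy 2.4.6 were used for the summaries.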

Additional observations from a re-analysis of the deposited data

How the results depend on the processing

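Over the alternatives run, the differences of the 8 genes kept their direction in mdx against wt and in mdx/Ripk3mKO against mdx. With 1 library left out, the mdx differences from wt ranged over -0.75 to -0.53 for Selp, -0.63 to -0.38 for Adgrg3, -0.41 to -0.27 for Sp7, -0.38 to -0.19 for Fam19a5 and -0.49 to -0.23 for Tmem200c. In mdx/Ripk3mKO against wt, where both values were near 0, Selp went from 0.01 to 0 with the correction for GC content and length, and ranged from -0.1 to 0.12 with 1 library left out, and Adgrg3 went from 0.01 to -0.01 with that correction and ranged from -0.06 to 0.08. The other 6 kept their sign, with ranges of 0.34 to 0.6 for Tmem200c, 0.17 to 0.36 for Cgref1, 0.01 to 0.15 for Sp7, 0.05 to 0.14 for Fam19a5, 0.08 to 0.17 for Dynap and 0.06 to 0.16 for Ass1, and the adjusted p did not pass under any of these alternatives. Counts over all genes moved more, and the cause was not tested. The 0 calls in mdx/Ripk3mKO against wt became 20 without mdx/Ripk3mKO library 2 and ranged from 0 to 20. The 1 call in mdx against wt became 103 in a fit of only those groups, ranged from 0 to 103 with 1 library left out, and was a different gene without variance trend and robust fitting. The 29 calls in mdx/Ripk3mKO against mdx became 1 without variance trend and robust fitting, 6 with the correction for GC content and length and 2 in a fit of only those groups, and ranged from 1 to 278, the highest without mdx/Ripk3mKO library 1. The number of genes with both mdx libraries lowest was 1530 and ranged from 1782 to 3306 with 1 library left out, which relaxes the order by construction. The count of 5 genes with mdx/Ripk3mKO above wt ranged from 5 to 7, an alternative chosen after seeing the data. With the replicate number as a block, the wt and mdx/Ripk3mKO libraries gave 0 calls; the numbers are not shown to pair the libraries, since across genes the deviations of same-numbered libraries had r = -0.011 and the mdx columns carry no numbers.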

Other observations

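Other genes with both mdx libraries lowest lay among those that earlier results gave as higher in mdx/Ripk3mKO than in mdx, and their values are given with no test. Itgb4, an integrin subunit of epithelial anchoring junctions, had 1876 and 1748 scaled counts in wt against 1388 and 1501 in mdx, with 1822 and 2181 in mdx/Ripk3mKO. Cspg4, a membrane proteoglycan also called NG2, had 1354 and 1185 in mdx, against 1773 and 1602 in wt and 1735 and 1706 in mdx/Ripk3mKO. Sdc3, a heparan sulfate proteoglycan of muscle stem cells, had 6054 and 6109 in wt, then 4787 and 5073 in mdx, then 5997 and 6609 in mdx/Ripk3mKO. For all 3 the wt and mdx/Ripk3mKO libraries overlapped, as they did for Selp, Sp7 and Adgrg3. Hmox1, the haem-degrading enzyme, had 4556 and 4565 in wt against 3931 and 4240 in mdx, with 5120 and 5041 in mdx/Ripk3mKO, with no overlap between groups. Thbs1, a secreted matrix glycoprotein, had 32098 and 30023 in mdx, against 35940 and 34153 in wt and 37146 and 37503 in mdx/Ripk3mKO, also with no overlap. Diras1, a small GTPase chosen here after its values were seen, had a gap ratio of 1.26, between those of Selp and Adgrg3.

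Myod1, the myogenic transcription factor, had 23226 and 21120 scaled counts in wt, then 19459 and 18636 in mdx, then 22696 and 23595 in mdx/Ripk3mKO, so its mdx libraries were lowest as well. By limma its difference of mdx from wt was -0.22 ± 0.05 (adjusted p = 0.418) and that of mdx/Ripk3mKO from mdx 0.28 ± 0.05 (limma adjusted p = 0.0528), and neither passed.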
